A study of Mus musculus with 8 samples.

Results

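Genes of the major histocompatibility complex (MHC) class II pathway were followed in RNA-seq of the mouse cochlea. The members were the 7 genes with the symbols Cd74, H2-Aa, H2-Ab1, H2-Eb1, H2-DMa, H2-DMb1 and Ciita, taken by symbol from a table of 21895 genes, and all 7 were found in the table and passed the filter on low values that left 14990 genes for testing. The libraries came from the cochlea of wild-type mice (WT, 4 libraries, WT1 to WT4) and of miR-29a-/- mice (KO, 4 libraries, KO1 to KO4). All mice were of the C57BL/6 background, pups of heterozygous breeding pairs of both sexes, and the KO animals lacked miR-29a with no driver or cell type named for the deletion. The series record put the mice at 21 days, whereas the methods gave an older age. The values are FPKM, fragments scaled to transcript length and to the number of mapped fragments, so that levels of different genes can be compared within a library. No source states that the libraries of a group came from separate animals, so the p-values measure the spread between these libraries only.

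MHC class II molecules are heterodimers that display peptides from endocytosed proteins to CD4+ T cells. Dendritic cells, B cells and macrophages carry them in most tissues, the cochlea included, where resident macrophages are the best-known class II bearing cells. The transactivator encoded by Ciita switches the whole set of genes on, the α and β chains pair with the invariant chain encoded by Cd74 in the endoplasmic reticulum, and H2-DM later helps to exchange the invariant chain fragment for a peptide. In C57BL/6 mice only I-A (H2-Aa with H2-Ab1) is assembled at the cell surface, since the α chain of I-E is not made and the β chain of H2-Eb1 lacks its usual partner.

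On GRCm38, the coordinates of the table, 5 of the 7 genes lay on chromosome 17 within 197134 bases, from 34119541 to 34316674. In this order they were H2-DMa (34119541 to 34139101, plus strand), H2-DMb1 (34153072 to 34160230, plus strand), H2-Ab1 (34257689 to 34269419, plus strand), H2-Aa (34282744 to 34287823, minus strand) and H2-Eb1 (34305867 to 34316674, plus strand). Ciita was on chromosome 16 (10480059 to 10528418, plus strand), and Cd74 lay elsewhere. Opposite-strand genes with exons over those of a member were Brd2, which covered 10.4% of the exon bases of H2-DMa, and Dexi, which covered 3.45% of those of Ciita. The libraries were made strand-specifically, but the counting settings are not given in the sources used here, so reads of such pairs may not have been told apart. H2-DMb1 also shared 22.7% of its 50-base words with its neighbouring copy H2-DMb2, so its own value is uncertain by an amount that was not estimated.

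Promoters of class II genes carry an X box and a Y box at a fixed distance, and Ciita acts through the proteins bound there. The windows below, each with its reference strand and build GRCm38.p6 from RefSeq, show these letters in the members for which a promoter was given and a match was found. Capitals mark AACNNATG (X box letters, N any base) and TGATTGG (Y box letters, an inverted CCAAT), the promoter being 250 bases before to 50 bases after the start of the gene.
H2-DMb1, chr17:34153073-34153144, plus strand: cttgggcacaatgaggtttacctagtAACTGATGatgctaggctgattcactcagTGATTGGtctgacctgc
H2-Eb1, chr17:34305751-34305822, plus strand: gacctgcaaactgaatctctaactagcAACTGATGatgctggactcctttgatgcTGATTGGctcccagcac
H2-Aa, chr17:34287857-34287928, minus strand: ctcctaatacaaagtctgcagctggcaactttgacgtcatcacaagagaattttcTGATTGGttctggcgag
The X box letters ended 21 bases before the Y box letters in H2-DMb1 and 20 bases before them in H2-Eb1, with the same 8 letters in both. H2-Aa had the Y box letters and no match to the X box letters, and neither of the 2 promoters of H2-DMa had a match to either. Read on both strands, the X box letters were in 8.86% and the Y box letters in 7.82% of 32851 mouse promoters of the same length, whereas the X box letters followed by the Y box letters at 10 to 35 bases were in 16 of them (0.0487%). Besides the 2 members, those 16 included the promoters of H2-DMb2, H2-Ob and H2-Eb2, other class II genes of the same cluster. The letters were chosen after the sequences were seen, so these shares are a description and do not test the motif. H2-Ab1, Cd74 and Ciita were not among the promoters searched.

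The microRNA deleted in the KO mice pairs with target mRNAs through its seed, shown in capitals (bases 2 to 8) in the mature sequence from RefSeq (GRCm38.p6, chr6:31062673-31062694, minus strand).
mmu-miR-29a-3p: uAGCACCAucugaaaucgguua
The letters that pair with this seed, TGGTGCT, were absent from the longest annotated 3′UTR of 6 members. They were found once in Ciita, with the first letter at base 2310 of 2676 in its 3′UTR, and capitals mark the match in this stretch (GRCm38, chr16:10528041-10528066, plus strand).
Ciita 3′UTR: agcctctgtgtTGGTGCTgggaagag
Such a match stood in the 3′UTR of 2294 of 14832 tested genes with an annotated 3′UTR (15.5%), so that 1 of 7 members is near the share of all genes.

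Across all tested genes, 767 of 14990 passed an unadjusted p of 0.05 in limma (5.12%), 691 of them higher in KO (4.61%), and none passed a Benjamini-Hochberg adjusted p of 0.05, the smallest being 0.558. The split depended on the scaling between libraries, since 402 of 765 passing genes were higher in KO with median-ratio scaling and 378 of 925 with quantile normalization. WT1 and WT3 stood apart in genes of blood cells. Ptprc, which marks all leukocytes, was at 97.6 FPKM in WT1 and 4.59 in WT3, against 13.9 and 17.6 in the other WT libraries and 26.6 to 40.4 in KO. The summed level of 10 neutrophil genes was 10052 FPKM in WT1 and 53.5 in WT3, against 684 in WT2, 942 in WT4 and 1739 to 5266 in KO. WT2 and WT4 were thus below every KO library in these genes, so leaving out WT1 and WT3 did not make the groups alike in blood cell genes. The cochlear gene Coch was high in all libraries (1231 to 1927 FPKM), and the summed level of 14 cochlear genes was 1592 to 2470 FPKM in WT and 1723 to 2182 in KO. Relative depth, estimated from the steps of values under 0.1 FPKM, ran from 0.949 to 1.16 of the median library. Because WT1 and WT3 stood apart, results are also given without WT1 and without both.

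Of the 7 class II genes, 1 passed the unadjusted threshold, H2-Ab1, which was 1.88-fold higher in KO, and all 7 fitted differences were above 0. This count of 1 of 7 stands beside 4.61% of all tested genes that passed as higher in KO. The median log2 fold change of the 7 was 0.75, whereas the median of all tested genes was 0.10. With median-ratio scaling, which moved the median of all genes to 0.0043, all 7 differences stayed above 0 with a median of 0.65, and H2-Ab1 was again the gene that passed. In no member did every KO library lie above every WT library, a pattern met by 3.02% of the tested genes.

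**Figure D1:**
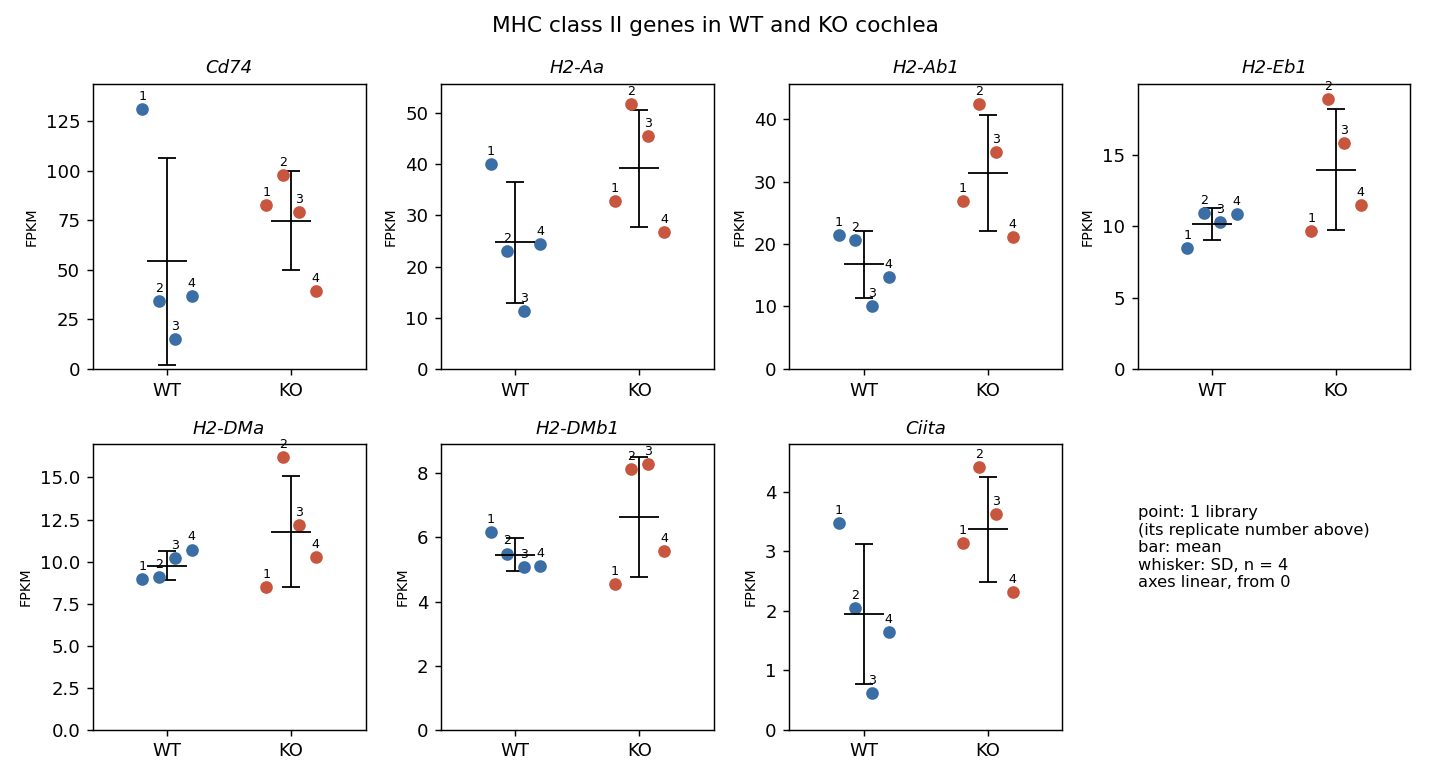
FPKM of the 7 class II genes in each library, with WT in blue and KO in red, the replicate number above each point, the mean as a bar and the SD as whiskers (n = 4 per group); axes are linear and start at 0. WT1 is the highest of all libraries for Cd74 (131 FPKM), WT3 is the lowest for Cd74, H2-Aa, H2-Ab1 and Ciita, and KO2 is the highest for 5 of the 7 genes.

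Ciita, the master transactivator of the set, was the lowest of the 7 genes. It was at 3.47, 2.05, 0.622 and 1.64 FPKM in WT1 to WT4 and at 3.13, 4.41, 3.61 and 2.31 FPKM in KO1 to KO4. The groups overlapped through WT1 alone, which lay above KO1 and KO4, whereas the other 3 WT libraries were below all KO libraries. The log2 fold change was 0.94 ± 0.46 (SE, n = 4 per group), with a 95% interval of -0.11 to 1.99, which missed the threshold (limma, adjusted p = 0.947). Without WT1 it was 1.28 ± 0.39 (limma, adjusted p = 0.159), and without WT1 and WT3 it was 0.81 ± 0.28, both past the unadjusted threshold. Without WT3 alone it was 0.51 and did not pass (limma, adjusted p = 0.952). Dexi, which overlaps Ciita on the other strand, was at 7.30 FPKM in WT1 and at 14.0 to 24.5 FPKM in the other 7 libraries. The part of Dexi reads in the Ciita values was not tested.

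Cd74 encodes the invariant chain, which fills the peptide groove of new class II dimers and leads them to the endosome, and its gene lies on chromosome 18 (GRCm38, 60803848 to 60812652, plus strand). It was the most abundant member in every library, at 131, 34.2, 15.1 and 36.6 FPKM in WT1 to WT4 and at 82.4, 97.6, 79.4 and 39.4 FPKM in KO1 to KO4. The WT libraries held both the highest and the lowest of the 8 values, 8.67-fold apart. The mean was 54.2 ± 52.1 FPKM in WT and 74.7 ± 24.9 FPKM in KO (n = 4, SD). A log2 fold change of 0.83 ± 0.60 (SE), with a 95% interval of -0.52 to 2.19, missed the threshold (limma, adjusted p = 0.947). Without WT1 the 3 remaining WT libraries were all below the 4 KO libraries, and the log2 fold change was 1.41 ± 0.39, past the unadjusted threshold (limma, adjusted p = 0.148). Leaving out WT3 in place of WT1 gave 0.37, which did not pass, and without both it was 0.998 ± 0.33 and passed.

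H2-Ab1, the β chain of I-A, was the member that passed the test. It was at 21.5, 20.7, 10.04 and 14.8 FPKM in WT1 to WT4 and at 27.0, 42.5, 34.8 and 21.2 FPKM in KO1 to KO4. All KO libraries were above all WT libraries but for KO4, which was just below WT1. The mean rose from 16.8 ± 5.39 to 31.4 ± 9.28 FPKM (SD, n = 4), a log2 fold change of 0.91 ± 0.30 (SE) with a 95% interval of 0.24 to 1.59. The unadjusted p was 0.0136 in limma, and the Benjamini-Hochberg adjusted p over all tested genes was 0.947. Leaving out each library in turn gave 0.69 to 1.09 with unadjusted p-values of 0.00682 to 0.0411 in limma. Without WT1 the log2 fold change was 1.05 (limma, adjusted p = 0.148), and without WT1 and WT3 it was 0.79 ± 0.28, and both passed.

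H2-Aa, the α chain that pairs with it, was at 40.0, 23.1, 11.2 and 24.5 FPKM in WT1 to WT4. In KO1 to KO4 it was at 32.8, 51.7, 45.5 and 26.8 FPKM. WT1 lay above KO1 and KO4, and the other WT libraries were below all KO libraries. The log2 fold change of 0.75 ± 0.37 (SE) had a 95% interval of -0.10 to 1.61 and missed the threshold (limma, adjusted p = 0.947). Without WT1 it was 1.03 ± 0.32 (limma, adjusted p = 0.161), and without WT1 and WT3 it was 0.67 ± 0.26, both past the unadjusted threshold. Without WT3 alone it was 0.42 and did not pass (limma, adjusted p = 0.952).

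H2-Eb1, the β chain of I-E, moved over a narrower range. It was at 8.48, 10.9, 10.3 and 10.8 FPKM in WT1 to WT4 and at 9.62, 18.9, 15.8 and 11.5 FPKM in KO1 to KO4. WT1 was here the lowest library and not among the highest, and KO1 fell within the WT range. The log2 fold change was 0.42 ± 0.22 (SE), with a 95% interval of -0.09 to 0.92, and missed the threshold (limma, adjusted p = 0.947). Without KO1 it was 0.58 and passed, whereas without WT1 it was 0.33 and did not pass (limma, adjusted p = 0.447). The lowest value was that without KO2, 0.25, which did not pass.

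H2-DMa and H2-DMb1 are the chains of H2-DM, the endosomal editor that is not displayed at the cell surface. H2-DMa was at 8.96, 9.10, 10.2 and 10.7 FPKM in WT1 to WT4 and at 8.51, 16.2, 12.2 and 10.3 FPKM in KO1 to KO4. H2-DMb1 was at 6.17, 5.50, 5.07 and 5.11 FPKM in WT1 to WT4 and at 4.56, 8.13, 8.30 and 5.59 FPKM in KO1 to KO4. For both chains KO2 and KO3 were above all WT libraries and KO1 was below all of them. The log2 fold changes were 0.23 ± 0.20 for H2-DMa (limma, adjusted p = 0.955) and 0.24 ± 0.22 for H2-DMb1 (limma, adjusted p = 0.961), and neither passed with any 1 library left out. Without KO2 they were 0.07 and 0.13, and without KO1 they were 0.38 and 0.40. Brd2, the opposite-strand neighbour of H2-DMa, was at 29.8 FPKM in WT1 and 39.6 to 47.9 FPKM in the other libraries, above H2-DMa in all 8. H2-DMb2, the copy of H2-DMb1, ranged from 0.444 FPKM in WT3 to 5.92 in KO2, and the sum of H2-DMb1 and H2-DMb2 was 7.17 ± 1.80 FPKM in WT and 10.4 ± 3.55 in KO (SD, n = 4).

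Without WT1, 4 of the 7 genes passed an unadjusted p of 0.05 in limma, namely Cd74, H2-Aa, H2-Ab1 and Ciita. The share of all tested genes that passed without WT1 was 19.5% (2922 of 15019), with 12.1% higher in KO, far above that of the 8 libraries. The same 4 genes passed without WT1 and WT3, beside 16.1% of all genes (2430 of 15055), with 9.17% higher in KO. In that fit 10 of 10 neutrophil and 9 of 9 pan-leukocyte genes were also higher in KO, and their part in the class II values was not tested. Leaving out a library other than WT1 gave 1 or 2 passing members.

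**Figure D2:**
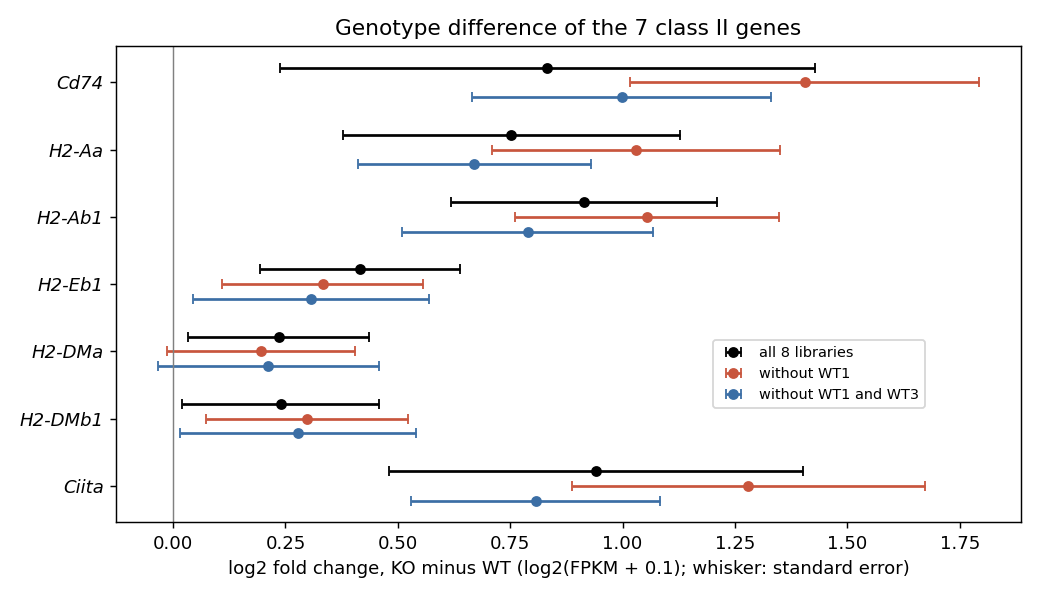
Log2 fold change (KO minus WT, log2 of FPKM plus 0.1) of the 7 class II genes in limma with all 8 libraries (black), without WT1 (red) and without WT1 and WT3 (blue), with the standard error as whiskers; the grey line marks 0. All 21 points are above 0, and the values of Cd74, H2-Aa, H2-Ab1 and Ciita are higher without WT1, whereas those of H2-Eb1, H2-DMa and H2-DMb1 stay between 0.20 and 0.42.

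The 7 genes split by how far they ranged over the libraries. Cd74, Ciita, H2-Aa and H2-Ab1 ranged 4.23-fold to 8.67-fold from the lowest to the highest library, and WT3 was the lowest for each. H2-Eb1, H2-DMa and H2-DMb1 ranged 1.82-fold to 2.23-fold, and their lowest library was WT1 or KO1. KO2 was the highest library for H2-Aa, H2-Ab1, H2-Eb1, H2-DMa and Ciita, WT1 for Cd74 and KO3 for H2-DMb1. The 3 genes of the narrow range include 2 of those with an overlapping exon or a shared copy, and the part of such reads in their values was not tested.

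Within a library, per transcript length, the order was Cd74, H2-Aa, H2-Ab1, H2-Eb1, H2-DMa, H2-DMb1 and Ciita in 6 of the 8 libraries. H2-DMa exceeded H2-Eb1 in WT1, at 8.96 against 8.48 FPKM. H2-Eb1, H2-DMa and H2-Ab1 lay together in WT3 at 10.3, 10.2 and 10.04 FPKM, in an order that differed from that of the other libraries. Over the groups, the ranges of H2-Aa and H2-Ab1 overlapped, as did those of H2-Eb1, H2-DMa and H2-Ab1 in WT, whereas H2-DMb1 lay below the range of H2-DMa in each group and Ciita was below every other member in each library. The 7 genes summed to 62.6 FPKM in WT3, 104 to 220 in the other WT libraries and 117 to 239 in KO. Cd74 made up 24.1% of that sum in WT3 and 59.6% in WT1, with 33.7% to 49.1% in KO.

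Ratios within a library do not depend on the scaling between libraries, and 6 of them were set against genotype by exact permutation of the libraries, two-sided, which cannot go below 0.0286 with 4 against 4. None passed the test (every adjusted p was 0.971 over the 6). H2-Aa to H2-Ab1, the chains of I-A, was 1.12 to 1.85 in WT and 1.22 to 1.31 in KO, with a log2 difference of -0.16 (exact p = 0.429). H2-Eb1 to H2-Ab1 was 0.397 to 1.02 in WT and 0.359 to 0.543 in KO, and its log2 difference of -0.50 was the largest of the 6 (exact p = 0.2). Both ratios spread more among the WT libraries than among the KO libraries, and for H2-Eb1 to H2-Ab1 the highest value was that of WT3.

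The ratio of Cd74 to H2-Ab1 was 6.06 in WT1 and 1.499 to 2.46 in the other WT libraries, against 1.85 to 3.05 in KO (log2 difference -0.08, exact p = 0.943). Ciita to Cd74 was lowest in WT1 at 0.0272, with 0.0474 to 0.0625 in the other WT libraries and 0.0392 to 0.0610 in KO (log2 difference 0.11, exact p = 0.857). WT1 thus had the most Cd74 RNA relative to H2-Ab1 RNA and the least Ciita RNA relative to Cd74 RNA of all 8 libraries. H2-DMb1 to H2-DMa was 0.481 to 0.692 in WT and 0.505 to 0.686 in KO (exact p = 0.971). H2-Ab1 to Ptprc was 0.221 in WT1 and 2.16 in WT3, the ends of the range, and 0.668 to 1.13 in KO (log2 difference -0.05, exact p = 0.971).

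**Figure D3:**
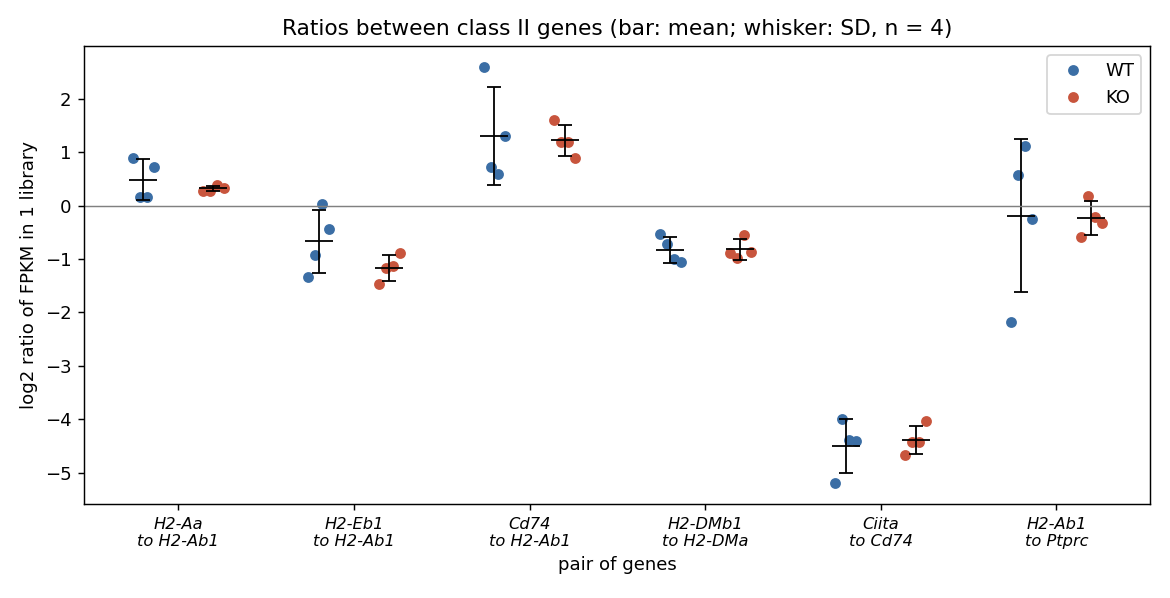
Log2 ratio of the FPKM of 2 genes (0.1 added to each) within each of the 4 WT (blue) and 4 KO (red) libraries, with the mean as a bar and the SD as whiskers (n = 4 per group). The WT and KO points overlap in all 6 ratios, and WT1 holds the highest Cd74 to H2-Ab1 ratio (6.06) and the lowest Ciita to Cd74 and H2-Ab1 to Ptprc ratios (0.0272 and 0.221).

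The other genes of the class II pathway showed no call in the 8 libraries. Of 25 listed genes 23 were in the table and 21 were tested, none passed an unadjusted p of 0.05 in limma, 16 differences were above 0, and the median log2 fold change was 0.26, beside 5.12% of all genes passing in either direction. With median-ratio scaling 15 were above 0 and 1 passed as lower in KO (Rfx5), and with quantile normalization 12 were above 0 and the same gene passed. H2-DMb2, the copy of H2-DMb1, and H2-Ob followed the wide pattern of Cd74 and Ciita. H2-Ob, the β chain of the H2-DM inhibitor H2-DO of B cells, was at 4.59, 2.93, 0.286 and 3.15 FPKM in WT1 to WT4 and at 4.32, 9.60, 4.38 and 2.82 FPKM in KO1 to KO4, lowest in WT3 and highest in KO2, with a log2 fold change of 1.24 ± 0.76 (SE) that was 0.44 without WT3 and 0.63 without WT1 and WT3. Its α chain partner H2-Oa stayed at 1.14 FPKM or lower in every library and was not tested. Ctsd, a lysosomal protease and the most abundant gene of the list, was at 213 ± 26.8 FPKM in WT and 209 ± 46.4 in KO (SD, n = 4).

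Ctss, the protease that trims the invariant chain, was at 26.9 ± 4.67 FPKM in WT and 34.7 ± 9.79 in KO (SD, n = 4). Of the factors bound to the X and Y boxes, Rfx5 had a log2 fold change of -0.39, Rfxap of 0.44, Rfxank of -0.11, Nfya of 0.26, Nfyb of 0.42 and Nfyc of -0.08, and none passed. These genes, like H2-Ob and Ctss, were singled out after their values were seen. Without WT1, 5 genes of this list passed as higher in KO and none as lower, namely H2-DMb2, Ctse, Nfya, March1 and Cd80, so that 5 of 21 stood beside 19.5% of all genes passing in that fit (12.1% as higher). Without WT1 and WT3, 2 passed as higher (Ctse and Cd80) and 1 as lower (Rfx5).

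MHC class I genes, which display peptides from the cytosol to CD8+ T cells, also had differences above 0. Of 18 tested, 5 rose in limma at an unadjusted p of 0.05, beside 4.61% of all genes passing as higher in KO, none fell, and all 18 fitted differences were above 0 with a median of 0.43. With quantile normalization 16 of the 18 were above 0 and 4 passed, and with median-ratio scaling 3 passed. The class I heavy chain H2-D1 was at 57.4 ± 12.0 FPKM in WT and 101 ± 18.9 in KO, with all KO libraries above all WT libraries (log2 fold change 0.81 ± 0.21, limma, adjusted p = 0.922). H2-K1 was at 38.8 ± 5.96 FPKM in WT and 55.7 ± 3.73 in KO, also without overlap (log2 fold change 0.53 ± 0.15, limma, adjusted p = 0.947). H2-Q7 had a log2 fold change of 0.79, and the light chain B2m was at 184 ± 114 FPKM in WT and 186 ± 43.5 in KO (n = 4, SD). A difference between class I and class II genes was not tested.

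Genes of the interferon gamma response, which induces Ciita in many cells, did not pass in either direction (0 of 22 in limma, median log2 fold change 0.08, 12 of 22 above 0), and the median was -0.02 with median-ratio scaling. Jak1, the most abundant of them, had a log2 fold change of 0.16. Without WT1, 5 of 22 passed as higher and 1 as lower, beside 19.5% of all genes passing in that fit. A rise of the interferon response list was therefore not detected in the 8 libraries.

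Several cell types can carry class II. In whole cochlea, more or fewer cells of a type cannot be told apart from more or less RNA per cell. Of the 14 macrophage genes 1 rose (Cd163, a scavenger receptor, log2 fold change 2.07), which is near the 4.61% of all genes passing as higher in KO. All 14 differences were above 0 with a median of 0.52, beside 0.10 for all genes. The summed level was 85.7 to 167 FPKM in WT and 91.7 to 186 in KO. It was lowest in WT3, and nearly equal in KO2 (185.5) and KO3 (185.3). KO4, at 91.7 FPKM, lay below WT2 (104) and WT4 (100), whereas H2-Aa, H2-Ab1 and Ciita were higher in KO4 than in WT2 and WT4. C1qb, the most abundant macrophage gene, was at 22.9 ± 9.19 FPKM in WT and 26.1 ± 8.25 in KO (SD, n = 4), highest in WT1 and lowest in WT3. Of 11 listed dendritic cell genes 10 were tested and none passed, with a median of 0.33. Their summed level was 22.6 to 28.6 FPKM in WT and 26.5 to 31.0 in KO, with 0 to 2 of the 11 genes under 0.1 FPKM in a library. Most abundant in that sum were Fscn1, Zbtb46 and Flt3, at means of 10.6, 5.12 and 5.11 FPKM over all libraries. Clec9a, Clec10a, Cd209a and Ccr7 were lowest in WT3, at 0.095 to 0.119 FPKM, whereas the other listed dendritic cell genes were lowest elsewhere. The sum therefore does not show that dendritic cell RNA was even over the libraries. No macrophage gene was under 0.1 FPKM in any library.

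The B cell lists were each at their highest in KO2, the mature list being lowest in WT3 and the early list in WT1. Of 9 mature B cell genes 2 rose (Blk, a kinase of the B cell receptor, log2 fold change 1.54, and Pax5, the B lineage factor, 2.18), none fell, and the median was 1.77. Among all tested genes 4.61% passed as higher in KO. Pax5 did not pass with median-ratio scaling. Their summed level was 1.19 FPKM in WT3, with 5 of the 9 genes under 0.1 FPKM there, 19.9 to 56.6 in the other WT libraries and 30.6 to 87.8 in KO. It was lowest in WT3 and highest in KO2, as were H2-Aa, H2-Ab1 and Ciita. Cd79b, a chain of the B cell receptor, was at 16.3, 4.02, 0.182 and 4.18 FPKM in WT1 to WT4 and at 13.9, 24.3, 13.9 and 7.99 FPKM in KO1 to KO4. Of 8 early B cell genes tested, which bone marrow holds, 6 rose and none fell, beside the same 4.61% of all genes. The log2 fold change was 2.16 for Vpreb1, 2.38 for Igll1 and 2.23 for Dntt, and 5 genes passed under either scaling, without Il7r. Ebf1, the most abundant gene of this list, had a log2 fold change of 0.19.

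Of the other lists of blood cells, 1 of 3 T cell genes rose (Cd4, log2 fold change 0.97, with Lck at 0.45) and 1 of 9 pan-leukocyte genes (Coro1a, 1.30). None of 7 monocyte genes and none of 10 neutrophil genes passed in limma. These counts stand beside 4.61% of all genes passing as higher in KO. Cd4 and Coro1a did not pass with median-ratio scaling. The medians of the monocyte, neutrophil and pan-leukocyte lists were 0.96, 2.32 and 0.96, with Chil3, S100a9 and Tyrobp as the most abundant genes. Their summed levels were lowest in WT3 and highest in WT1, at 49.9 and 1067 FPKM for monocytes and 62.4 and 740 FPKM for all leukocytes. Without WT1, 8 of 9 mature B cell, 6 of 7 monocyte, 10 of 10 neutrophil, 9 of 9 pan-leukocyte, 5 of 14 macrophage and 3 of 10 dendritic cell genes passed as higher in KO, beside the 4 of 7 class II genes and 12.1% of all genes. Without WT1 and WT3 the same lists gave 7, 6, 10, 9, 3 and 1, beside 4 of 7 class II genes and 9.17% of all genes. The part of these cell types in the class II values was not tested.

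**Figure D4:**
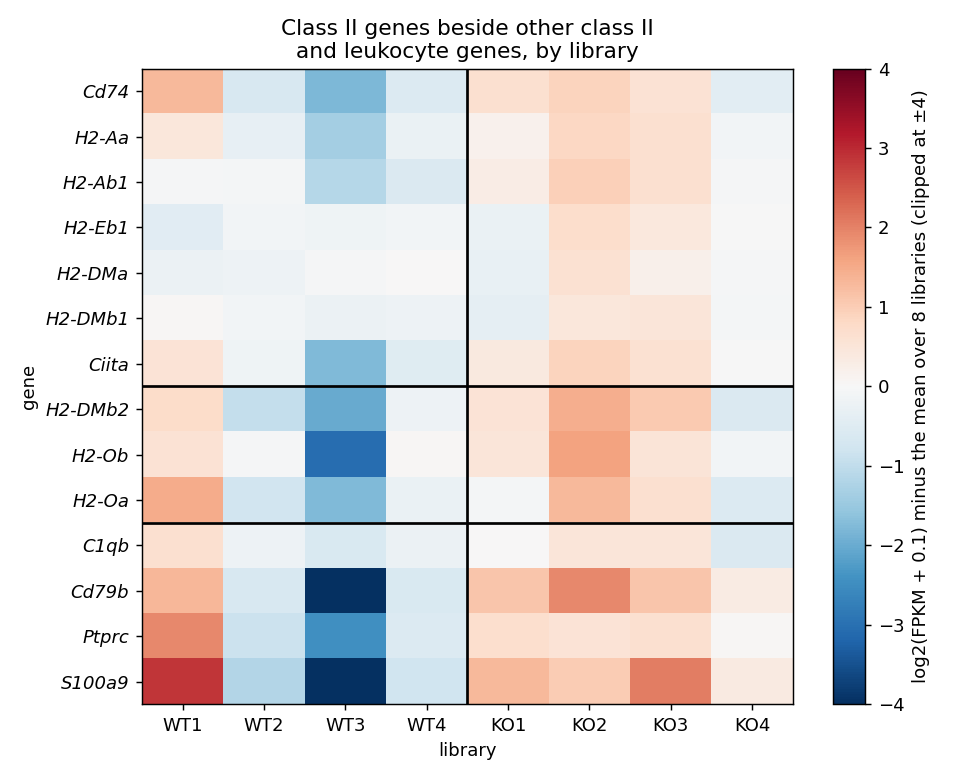
Log2(FPKM + 0.1) of each gene minus its mean over the 8 libraries, by library, with red above and blue below the mean and colours clipped at ±4; the upper block holds the 7 class II genes, the middle block 3 other class II genes, and the lower block a macrophage gene (C1qb), a B cell gene (Cd79b), a leukocyte gene (Ptprc) and a neutrophil gene (S100a9). WT3 is blue for Cd74, H2-Aa, H2-Ab1 and Ciita as for the lower blocks, whereas H2-Eb1, H2-DMa and H2-DMb1 are near white there.

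Of tissue lists, 1 of 14 cochlear genes fell (Tectb, a tectorial membrane gene, log2 fold change -1.19) and none rose, and 3 fell under either scaling. Of 9 bone genes 2 rose (Col1a1, 1.28, and Ctsk, 1.72), Spp1 being the most abundant. In the 8 libraries, 5.12% of all genes passed in either direction and 4.61% as higher in KO. None of 7 muscle genes passed, with Acta1 leading, and their summed level was 339 FPKM in KO3 and 0.634 to 40.7 in the other libraries. Among the 8 libraries, KO3 ranked 1 for H2-DMb1, 2 for H2-Aa, H2-Ab1, H2-Eb1, H2-DMa and Ciita, and 4 for Cd74. The fold change of each class II gene was above 0 without KO3. The part of muscle tissue in the class II values was not tested.

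A mean pattern of the class II genes without Ciita and H2-DMb1 was set against that of other genes of mean FPKM 1 or more. It joins genes of the wide range and of the narrow range. For the mean of log2(FPKM + 0.1) of H2-Aa, H2-Ab1, H2-Eb1, Cd74 and H2-DMa, the 10 genes of mean FPKM 1 or more with the highest Pearson correlation over the 8 libraries were Eme1 (0.985), Hfe (0.981), Gimap8 (0.978), Hist1h4i (0.976), Syngr2 (0.975), Aplf (0.974), Cep85 (0.974), Slc25a51, Fanci and Btg2 (each 0.970). These correlations are a description over 8 libraries that share 2 genotypes and the differences in blood cell genes, and 317 of 14119 genes exceeded 0.9. Hfe, a class I-like protein of iron uptake, was at 5.71 FPKM in WT3, 12.4 to 46.2 in the other WT libraries and 23.3 to 112 in KO. Ptprc, the leukocyte marker, had a correlation of 0.80 with the same mean.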

How the data were processed

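Cochlear RNA of 4 WT and 4 KO libraries was sequenced. The authors removed ribosomal RNA, made strand-specific paired-end libraries, mapped the reads with Hisat2, and the deposited values are FPKM for each gene in each library. The tool and annotation behind the FPKM are not given in the sources used here. The submitters' processing notes name mm9, but 19771 of 21895 loci equal those of GENCODE mouse release 21 on GRCm38, which was used. Of 21895 symbols, 27 turned into dates were restored from gene identifiers. FPKM hold no counts, so counting error is unknown. No column was left unused (0).

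Log2(FPKM + 0.1) was fitted, for genes whose mean FPKM reached 0.5 or more, with limma 3.58.1 (R 4.3.3) with genotype as the only factor, a mean-variance trend and no further scaling. As in the study, a gene passed at an unadjusted two-sided p under 0.05. Benjamini-Hochberg adjustment ran over all tested genes, and the fit was tested on simulated data. Ratios were compared by exact permutation (scipy 1.17.1).

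The members and gene lists were chosen with earlier results of these data known, as were the promoter letters, chosen after the sequences were seen. Besides the members, named genes were, per list, up to 3 with the smallest p under 0.05 and the most abundant one. The 10 most like the mean of the members without Ciita and H2-DMb1 were also named. Of the listed genes, Ifi30, Ighm, Ighd, Trac, Trbc1 and Trbc2 are not analysed here. MiR-29a itself is not analysed here, so genotype was not checked. Alternatives were another pseudocount, filters, scalings, variance without trend, replicates 1 to 3, the replicate block and leaving out libraries. The fit without WT1 and WT3 was chosen after seeing the data.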

Additional observations from a re-analysis of the deposited data

How the results depend on the processing

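The difference between WT and KO kept its direction in each of the 7 class II genes under all 17 alternatives, and H2-Ab1 passed an unadjusted p of 0.05 in limma in all of them. Leaving out each library in turn gave 347 to 2922 passing genes in all, 1 to 4 class II genes, 0 to 5 other class II pathway genes and 13 to 71 genes of the lists. The lowest counts over all genes were those without KO2 (377) and without KO3 (347), and the highest, 2922, was that without WT1. Without WT1 and WT3 the counts were 2430, 4, 3 and 61. Other class II pathway genes passing were 1 with median-ratio scaling, 1 with quantile normalization and 1 with replicates 1 to 3. Median-ratio scaling moved the median of all genes from 0.10 to 0.0043 and quantile normalization to -0.04, and the share of passing genes that were higher in KO went from 90.1% to 52.5% and 40.9%. H2-Ab1 then had a log2 fold change of 0.81 (limma, unadjusted p = 0.0378) with median-ratio scaling.

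In the fit with a replicate block, 838 genes and 2 class II genes passed, H2-Ab1 and H2-Eb1 (limma, unadjusted p = 0.0497). Nothing says that the numbers pair animals, and the deviations of same-numbered libraries correlated at 0.419, -0.240, -0.170 and 0.210. Of the ratios, none of which passed, H2-DMb1 to H2-DMa changed sign with a pseudocount of 1 (-0.0063) and with replicates 1 to 3 (-0.0568), Ciita to Cd74 with a pseudocount of 1 (-0.17) and Cd74 to H2-Ab1 with replicates 1 to 3 (0.0287). Over the libraries left out, the log2 differences ranged from -0.32 to 0.35 for Cd74 to H2-Ab1, from -0.0876 to 0.10 for H2-DMb1 to H2-DMa, from -0.13 to 0.27 for Ciita to Cd74 and from -0.71 to 0.38 for H2-Ab1 to Ptprc. The cause of these changes was not tested, beyond the libraries and settings named.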
